A study of Mus musculus with 6 samples.

Results

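Genes of the ATF4 branch of the integrated stress response, 10 in all, were followed in the RNA of mouse Th17 cells labelled deficient in the elongation factor RTF1. They were chosen by name: the eIF2α kinases Eif2ak1, Eif2ak3 and Eif2ak4, the phosphatase subunit Ppp1r15a, the transcription factor genes Atf4, Atf5, Ddit3 and Cebpb, and the feedback targets Trib3 and Chac1. All 10 were among the 31017 genes of the count table and among the 14268 genes with enough counts to be tested, with 14 to 22046 counts per library. The study compared 3 cultures of control Th17 cells, whose genotype is given as WT, with 3 cultures of RTF1-deficient Th17 cells (KO), all differentiated in vitro. How RTF1 was removed, the age of the mice and whether cultures came from separate mice are not given in the sources used here, so p-values measure the spread between these 6 libraries. Replicates are named by the numbers of the labels.

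The integrated stress response slows protein synthesis when cells lack amino acids or haem, accumulate unfolded protein in the endoplasmic reticulum, or sense viral RNA. Kinases phosphorylate the initiation factor eIF2, most messages are then translated less, and the Atf4 message, with its short upstream reading frames, is translated more. ATF4 protein activates genes of amino acid uptake and synthesis and, through CHOP (the product of Ddit3), TRIB3 and GADD34 (the product of Ppp1r15a), also genes that end the response. In T cells this branch has been linked to amino acid supply during activation. RNA counts measure messages and not the translation of Atf4 or the phosphorylation of eIF2.

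The promoters of Chac1 and Trib3 are shown first because these 2 genes had the largest decreases of the 10 and the only 2 promoter windows, of the 12 RefSeq windows for the 10 genes, that held the core of the C/EBP-ATF response element (CARE), the composite site of ATF4 and its partners. The searched letters were TGATGNAA, on both strands, and the search covered 250 bases before and 50 bases after each RefSeq start (GRCm38.p6). The same letters stood in 3.97% of all 32851 promoter windows. In Chac1 the match read TGATGCAA on the strand opposite to the gene and ended 172 bases before the GENCODE start of the gene. In Trib3 it read TGATGTAA, again on the opposite strand, 6 bases before the GENCODE start. The last 28 bases of the printed Trib3 stretch come after the RefSeq start, and the match is among them. The ERSE, a motif of unfolded-protein-response promoters, had no match in the 12 windows and stood in 0.119% of all windows. A match describes letters and is not evidence of binding. The sequences are written 5′ to 3′ on the strand of the gene and stop before the GENCODE start, at chr2:119350992-119351228 (plus strand) for Chac1 and chr2:152344033-152344310 (minus strand) for Trib3, with the match in capitals.
Chac1: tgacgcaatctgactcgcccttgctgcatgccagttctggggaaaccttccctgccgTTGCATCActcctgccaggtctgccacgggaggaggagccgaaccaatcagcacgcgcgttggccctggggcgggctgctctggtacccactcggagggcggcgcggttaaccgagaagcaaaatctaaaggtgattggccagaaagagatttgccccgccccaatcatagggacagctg
Trib3: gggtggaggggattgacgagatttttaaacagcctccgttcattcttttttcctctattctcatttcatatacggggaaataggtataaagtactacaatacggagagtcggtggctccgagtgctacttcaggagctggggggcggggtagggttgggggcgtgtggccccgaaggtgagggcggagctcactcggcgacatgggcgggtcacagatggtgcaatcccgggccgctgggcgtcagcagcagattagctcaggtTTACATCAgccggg

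Libraries held 16489813 to 51271226 counts in control and 19304121 to 35907999 in KO. Rtf1 was read first as a check of the labels. It measured 94.0, 91.2 and 88.3 CPM (counts scaled to a common library total, with TMM factors) in the control libraries, in the order of their numbers, against 45.3, 30.4 and 26.2 CPM in the KO libraries, so 37.2% of the control level remained. The 7 markers reported for Th17 cells include Cd3e and Cd4, which other T cells express too, and the cytokine genes Il17a and Il17f. All had counts, and their summed level was 2259 to 2736 CPM in control and 1056 to 1692 CPM in KO. Il17a alone measured 347, 306 and 222 CPM in control and 161, 40.3 and 77.4 CPM in KO. For Il17f the values were 1218, 1538 and 938 CPM in control and 817, 329 and 374 CPM in KO. Il17f had the highest mean of the 7, at 869 CPM over the 6 libraries. Of the 7, 5 were called lower and 1 higher, Cd3e, which encodes a chain of the T cell receptor complex (180, 208 and 209 CPM in control, 289, 347 and 341 CPM in KO). Replicate 3 of each group carried 11376 and 5147 counts of 4 Y-linked genes, against 1 to 3 in each other library, so these 2 libraries stood apart in sex and results are also given without them.

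Of the 10 genes, 7 were called at an adjusted p under 0.05 in edgeR's quasi-likelihood test, 6 lower and 1 higher in KO. Of all tested genes, 46.1% were called, 22.9% lower and 23.2% higher. In 8 of the 10 the KO libraries all lay on 1 side of the control libraries, 7 below and 1 above, against 57.9% of all tested genes. The median log2 fold change was −0.38 over the 10 genes and 0.013 over all tested genes. Without the 2 libraries numbered 3, 6 of the 10 were called, and 44.3% of all tested genes. The log2 fold changes in that fit were −3.12 for Chac1, −1.77 for Trib3, −1.54 for Atf4 and −0.92 for Atf5. They were −0.51 for Ppp1r15a, −0.28 for Eif2ak4, −0.20 for Eif2ak3, −0.23 for Ddit3, 0.39 for Cebpb and 0.58 for Eif2ak1. In bulk RNA, fewer cells of a type and less RNA per cell cannot be told apart.

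**Figure D1:**
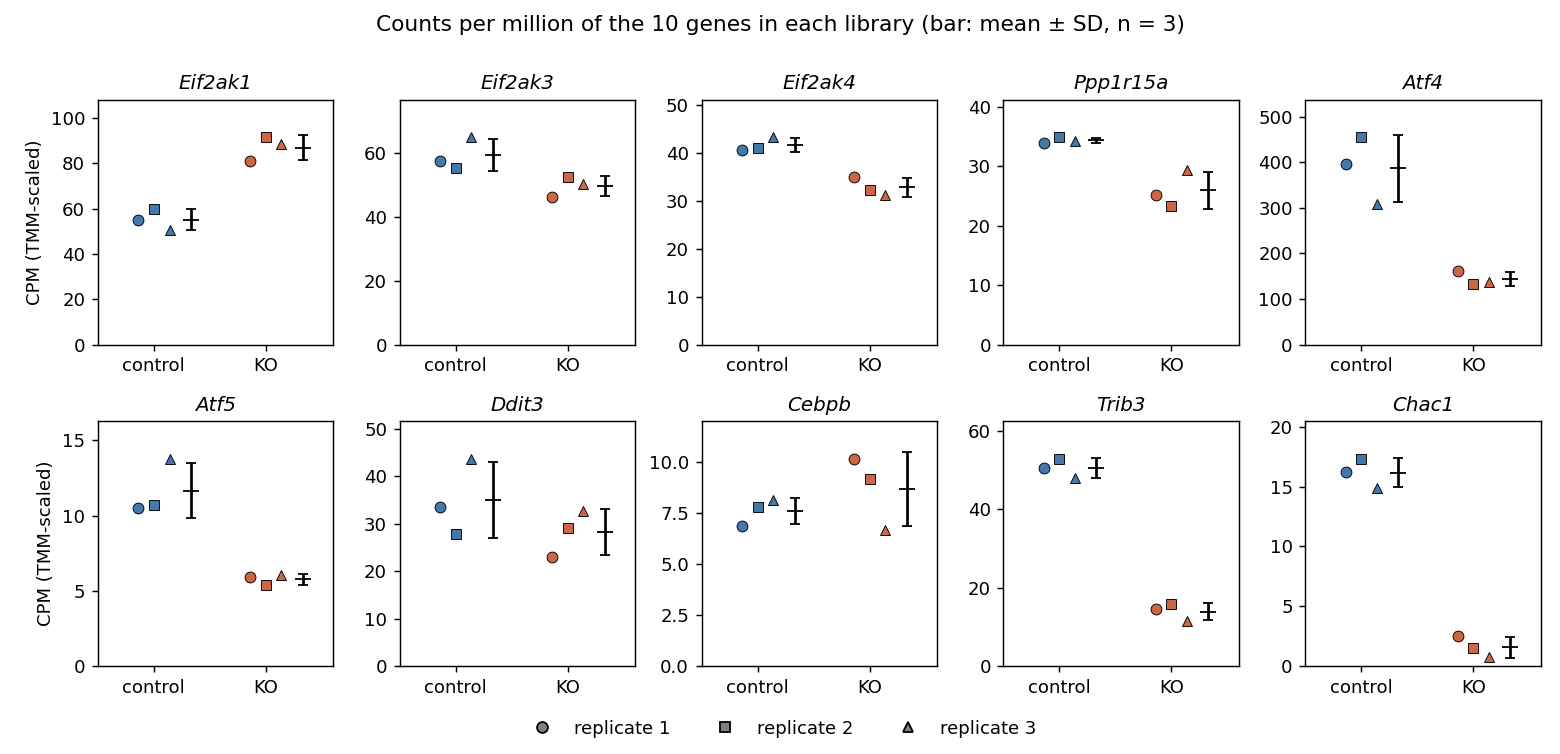
TMM-scaled CPM (vertical axes, each starting at 0) of the 10 genes in control (blue) and KO (orange) libraries, with 1 symbol per replicate number and a bar for the mean and SD over 3 libraries. Control and KO points separate in 8 panels, with Eif2ak1 the 1 gene above control, and mix in those of Ddit3 and Cebpb.

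Atf4, the transcription factor gene at the centre of the branch, fell to 37.2% of its control level. Its level was 396, 455 and 309 CPM in control replicates 1, 2 and 3, against 161, 133 and 138 CPM in the KO replicates. The highest KO library lay well below the lowest control library, and control replicate 3 was the lowest of its group. The means were 387 ± 73.3 in control and 144 ± 15.3 CPM in KO (SD, n = 3), and edgeR gave a log2 fold change of −1.43 with an SE of 0.163 (adjusted p = 0.000401). Between libraries of equal number the difference in log2 CPM was −1.30, −1.78 and −1.17. Atf4 lies on chromosome 15 (GRCm38 80255184 to 80257541), and none of its 50-base stretches occurs in transcripts of another gene in GENCODE release M21.

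Atf5, which encodes a relative of ATF4 whose message is also under translational control and which is linked to mitochondrial stress, fell as well. It was measured at 10.5, 10.7 and 13.8 CPM in control replicates 1, 2 and 3, against 5.88, 5.37 and 6.05 CPM in KO. The groups did not overlap, and the KO libraries lay closer together than the control libraries. The log2 fold change was −1.02 (SE 0.193, edgeR adjusted p = 0.00324), which left 49.5% of the control mean. At these levels each library held 119 to 580 counts of Atf5.

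Ddit3, which encodes CHOP, the partner of C/EBP proteins that rises in prolonged stress, was not called. Its level was 33.6, 27.9 and 43.7 CPM in control replicates 1, 2 and 3, against 23.0, 29.1 and 32.6 CPM in the KO replicates. The groups overlapped: control replicate 2 lay below KO replicates 2 and 3. The log2 fold change was −0.31 (SE 0.197, edgeR adjusted p = 0.220). Leaving out control replicate 3 gave −0.17 and leaving out KO replicate 1 gave −0.19, whereas −0.47 was found without control replicate 2 and −0.43 without KO replicate 3, none of them called, and the pairs of equal number did not share a direction, at −0.54, 0.058 and −0.42. Ddit3 has 2 gene models in GENCODE, and 4.73% of its exonic bases lie opposite to Mars and Gm4189, whose reads cannot be told apart from its own without a stated strand setting. Mars averaged 195 CPM in control and 88.0 CPM in KO and was called lower (log2 fold change −1.15, edgeR adjusted p = 0.000616), and its part in the Ddit3 values was not tested.

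Cebpb encodes C/EBPβ, a bZIP factor that can pair with ATF4 and CHOP and whose gene ATF4 can induce. It was not called either, with 6.87, 7.82 and 8.13 CPM in control replicates 1, 2 and 3, against 10.2, 9.19 and 6.66 CPM in KO. KO replicates 1 and 2 lay above all control libraries and KO replicate 3 below them. The log2 fold change was 0.19 (SE 0.214, edgeR adjusted p = 0.495), and it was 0.056 when KO replicate 1 was left out, 0.057 when this was control replicate 1 and 0.34 when this was KO replicate 3. Without both libraries numbered 3 it was 0.39 (adjusted p = 0.183). In Cebpb 20.7% of the exonic bases lie opposite to Tmem189, a gene called higher in KO (log2 fold change 0.70, edgeR adjusted p = 0.00524), and the part of such reads was not tested. Myeloid cells express Cebpb strongly. Of 11 myeloid markers 8 exceeded 3 counts in some library, none was at 0 in all libraries, 1 of the 3 tested (Csf1r) was called higher, a call lost in 4 of 6 cases with 1 library left out, and their summed level was 1.28 to 1.57 CPM in control and 2.62 to 4.48 CPM in KO, a part in the Cebpb values that was not tested.

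Trib3 and Chac1, the feedback targets, had the lowest fold changes of the 10 genes. Trib3 encodes a pseudokinase that is induced by ATF4 and CHOP and dampens their activity. Trib3 stood at 50.6, 53.0 and 48.0 CPM in control replicates 1, 2 and 3, against 14.5, 15.8 and 11.4 CPM in the KO replicates. The control libraries were close together, the KO libraries varied more (coefficients of variation 4.94% and 16.4%), and the highest KO library was far below the lowest control library. Trib3 fell to 27.5% of the control mean (log2 fold change −1.86, SE 0.153, edgeR adjusted p = 0.000120), the smallest adjusted p of the 10.

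Chac1 encodes an enzyme that degrades glutathione and is a sensitive target of the branch. It fell from 16.2, 17.3 and 14.9 CPM in control replicates 1, 2 and 3 to 2.47, 1.47 and 0.712 CPM in KO. KO replicates thus differed among themselves by more than the control libraries did, with a coefficient of variation of 56.8% against 7.48%, and they rested on 65, 55 and 14 counts. The mean was 9.59% of control (log2 fold change −3.36, SE 0.365, edgeR adjusted p = 0.000334), and 0.421% of all tested genes had a fold change as low or lower. Leaving out KO replicate 1 gave −3.83, and leaving out KO replicate 3 gave −3.05. Chac1 lies 320.7 kb from Rtf1 on chromosome 2 (119351229 to 119354381), with 7 tested genes between them. Of the 40 tested genes nearest to Rtf1, 20 on each side and Chac1 among them, 42.5% were called, 7 higher and 10 lower with Chac1, beside 46.1% of all tested genes.

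**Figure D2:**
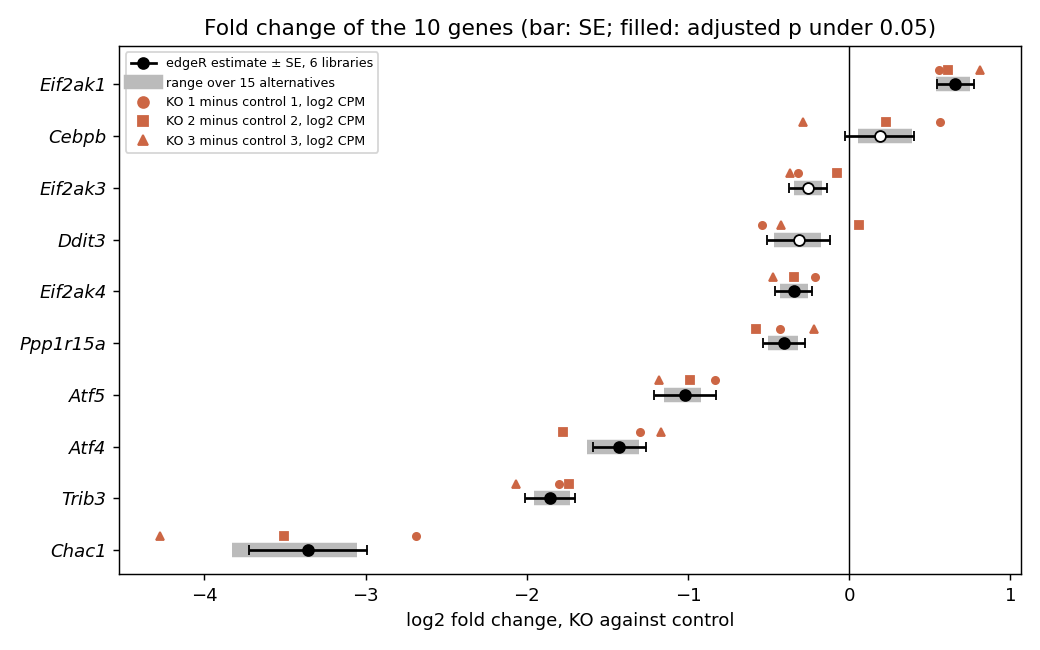
Log2 fold change of KO against control (horizontal axis) for the 10 genes, as edgeR's estimate with its SE (black, filled where the adjusted p was under 0.05), its range over 15 alternative analyses (grey), and the difference in log2 CPM between libraries of equal number (orange). Chac1, Trib3, Atf4 and Atf5 lie at or below −0.83 in every pair, and the pairs of Ddit3 and Cebpb fall on both sides of 0.

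The eIF2α kinases did not move together. Eif2ak1 encodes HRI, the kinase known for sensing haem shortage and mitochondrial stress, and it was the 1 gene of the 10 that rose. Its levels were 55.0, 59.8 and 50.5 CPM in control replicates 1, 2 and 3, against 80.9, 91.4 and 88.5 CPM in KO. All KO libraries lay above all control libraries (log2 fold change 0.66, SE 0.113, edgeR adjusted p = 0.00217), a mean of 158% of control. In Eif2ak1 11.6% of the exonic bases lie opposite to Aimp2 and Ankrd61. Aimp2 was called lower in KO (log2 fold change −0.84, edgeR adjusted p = 0.00849), and Ankrd61 was not called (0.60, adjusted p = 0.229). Without control replicate 3 Ankrd61 was called (0.99, adjusted p = 0.0408), and without both libraries numbered 3 it was not (1.003, adjusted p = 0.0815). The part of reads from these genes in the Eif2ak1 values was not tested.

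Eif2ak3 encodes PERK, the kinase of the endoplasmic reticulum membrane. Its level was 57.5, 55.2 and 64.7 CPM in control replicates 1, 2 and 3, against 46.0, 52.3 and 50.1 CPM in KO. The groups did not overlap, but the gap was small, and the gene was not called (log2 fold change −0.26, SE 0.117, edgeR adjusted p = 0.101). Across its exonic bases 8.05% lie opposite to Gm43292.

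Eif2ak4 encodes GCN2, which senses uncharged transfer RNA when amino acids run short. Its levels were 40.7, 41.1 and 43.3 CPM in control replicates 1, 2 and 3, against 35.1, 32.3 and 31.2 CPM in KO, with no overlap. It fell to 78.8% of control (log2 fold change −0.34, SE 0.115, edgeR adjusted p = 0.0371). Leaving out 1 library ended this call in 4 of 6 cases: without control replicate 1 (adjusted p = 0.0644), control replicate 2 (0.0614), KO replicate 2 (0.131) or KO replicate 3 (0.123). It was also lost with library totals as the only scaling (0.108), without a filter on low counts (0.0768) and without the 2 libraries numbered 3 (0.129). Eif2ak4 lies 1.2 Mb from Rtf1 on chromosome 2, with 30 tested genes between them.

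Since Eif2ak1 was higher and Eif2ak3 and Eif2ak4 were not, its counts were also set against theirs within each library. Such a ratio does not depend on the scaling of libraries. Per 100 Eif2ak3 counts, there were 95.8, 108 and 78.0 Eif2ak1 counts in control replicates 1, 2 and 3, against 176, 175.0 and 177 in the KO replicates. Per 100 Eif2ak4 counts, the range was 117 to 146 in control and 231 to 283 in KO. The ranges were separate for both ratios. These ratios were computed after the values had been seen and were not tested. Eif2ak2, which encodes PKR, the kinase that binds double-stranded RNA and that interferon induces, is not among the 10 genes. It rose from 45.4, 37.2 and 65.8 CPM to 82.8, 68.0 and 127 CPM (log2 fold change 0.90, SE 0.266, edgeR adjusted p = 0.0221). Its call was lost without control replicate 1 (adjusted p = 0.0781), control replicate 2 (0.0831) or KO replicate 3 (0.0742).

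Ppp1r15a encodes GADD34, the stress-induced subunit that directs protein phosphatase 1 to eIF2α and thereby restores translation. It was measured at 33.9, 34.9 and 34.3 CPM in control replicates 1, 2 and 3, the smallest control coefficient of variation of the 10 (1.46%), against 25.1, 23.4 and 29.4 CPM in KO. The groups did not overlap, and it fell to 75.6% of control (log2 fold change −0.41, SE 0.132, edgeR adjusted p = 0.0328). The call was lost without control replicate 1 (adjusted p = 0.0646), control replicate 2 (0.0717), KO replicate 1 (0.0856) or KO replicate 2 (0.146), and with library totals as the only scaling (0.0747). Ppp1r15b, the constitutive counterpart, was at 210, 213 and 178 CPM in control and 243, 263 and 229 CPM in KO and was not called (log2 fold change 0.29, edgeR adjusted p = 0.0731). The fit with the replicate block called it (adjusted p = 0.0336), as did the fit with library totals only (0.0309), but without control replicate 3 the fold change was 0.16 (adjusted p = 0.345).

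Within each library, the targets did not keep a constant ratio to Atf4. Per 100 Atf4 counts, Chac1 had 4.10, 3.81 and 4.83 counts in control replicates 1, 2 and 3, against 1.53, 1.11 and 0.517 in KO, so it was lower relative to Atf4 as well. Trib3 had 11.6 to 15.5 counts in control and 8.28 to 11.9 in KO, with KO replicate 2 inside the control range. Ppp1r15a had 7.66 to 11.1 in control and 15.6 to 21.4 in KO, and Ddit3 had 6.14 to 14.1 and 14.3 to 23.7. For these 2 genes, whose own levels were lower or not called, the ratio to Atf4 was higher in every KO library than in every control library, by a narrow gap for Ddit3. Atf5 had 2.35 to 4.46 in control and 3.65 to 4.40 in KO, ranges that overlap. These ratios too were computed after the values had been seen, have no test, and show unequal change only.

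**Figure D3:**
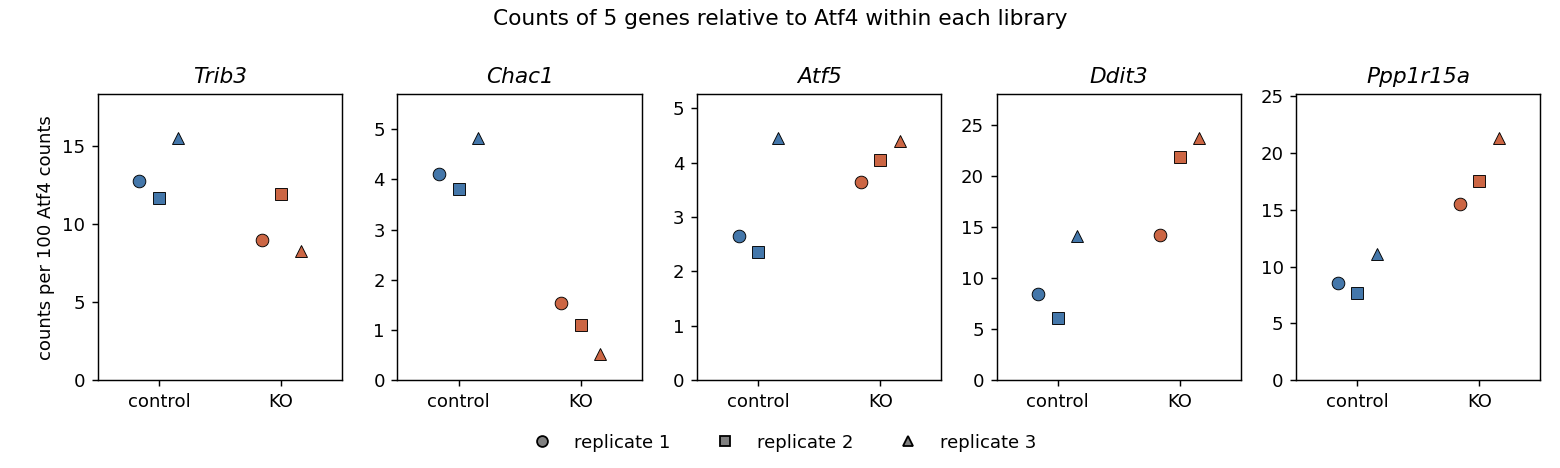
Counts of Trib3, Chac1, Atf5, Ddit3 and Ppp1r15a per 100 Atf4 counts of the same library (vertical axes, each starting at 0), in control (blue) and KO (orange), with 1 symbol per replicate number. Chac1 lies lower and Ppp1r15a and Ddit3 higher in all KO libraries, while Atf5 and Trib3 overlap.

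Per kilobase of exon, Atf4 was the most abundant of the 10 in both groups, with 164 ± 31.1 CPM per kb in control and 61.1 ± 6.50 in KO (SD, n = 3), and no other member came near it. In control, Trib3 (23.8 CPM per kb) and Ddit3 (20.5) followed with overlapping libraries, then Ppp1r15a (11.7). Chac1 (9.87), Eif2ak3 (9.81) and Eif2ak1 (9.72) could not be ordered beyond their spread, and Atf5 (5.85) overlapped with Eif2ak4 (5.59) and with Cebpb (5.06) at the low end. In KO, Ddit3 (16.5) and Eif2ak1 (15.3) came next to Atf4 and overlapped. Ppp1r15a (8.83) and Eif2ak3 (8.21) overlapped below them, as did Trib3 (6.55) and Cebpb (5.77), and Cebpb and Eif2ak4 (4.41). Atf5 (2.89) and Chac1 (0.946) were lowest, without overlap. Trib3 thus lay above Ppp1r15a and Eif2ak3 in every control library and below both in every KO library. Chac1 lay above Atf5 in every control library and below it in every KO library. Eif2ak1 lay below Ppp1r15a in control and above it in KO. Lengths were taken from GENCODE, since the annotation the authors counted on is not given in the sources used here.

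The profile of Atf4 over the 6 libraries was compared with those of 9806 genes averaging 5 CPM or more, by the root mean square difference of log2 CPM centred on each gene's mean. The nearest were Ung (0.0665), a uracil-DNA glycosylase gene, Ada (0.0690), the adenosine deaminase gene, and Lars (0.0741), which encodes a leucyl-tRNA synthetase. Lars ran at 294, 321 and 229 CPM in control and 134, 103 and 101 CPM in KO. Ung ran at 20.1, 24.6 and 15.3 CPM in control and 8.47, 6.22 and 6.66 CPM in KO. Ada ran at 11.4, 13.1 and 8.65 CPM in control and 4.67, 3.36 and 3.61 CPM in KO. All had the lowest control value in replicate 3 and the highest KO value in replicate 1, as for Atf4. Genes picked for a near profile share such an order by their choice, so it is no further result. For Chac1 the nearest were Syce2 (0.388), Pkp2 (0.408) and Slc6a9 (0.411). Syce2 (log2 fold change −3.29, edgeR adjusted p = 5.1e-05) and Pkp2 (−3.20, adjusted p = 0.000367) were called lower. Slc6a9, a glycine transporter gene counted among ATF4 targets, fell from 9.73, 8.50 and 8.96 CPM to 1.97, 0.908 and 0.864 CPM (log2 fold change −2.85, edgeR adjusted p = 0.000521). The distances for Chac1 were larger than those for Atf4, and none of the other members was among the 3 nearest to Atf4 or to Chac1.

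Of 138 tested genes in 6 lists around the branch, 88 were called, 66 lower and 22 higher, beside 46.1% of all tested genes. The list of ATF4 targets of amino acid supply (enzymes, transporters and tRNA synthetases) had 35 of 37 genes called, all 35 lower, with a median log2 fold change of −1.31. Slc38a1 (0.055, edgeR adjusted p = 0.713) and Wars (−0.20, adjusted p = 0.225) were the 2 not called; without control replicate 3 Wars was called (−0.36, adjusted p = 0.0490) and Slc38a1 was −0.062. Aldh1l2, of mitochondrial folate metabolism, fell from 21.1 ± 7.08 to 1.32 ± 0.466 CPM (SD, n = 3; −3.99, edgeR adjusted p = 0.000124). Pycr1, of proline synthesis, fell from 23.0 ± 4.14 to 2.75 ± 0.811 CPM (−3.07, adjusted p = 0.000116). Of the 26 genes of this list with a promoter window, 10 held the CARE letters found in Chac1 and Trib3, and each of these 10 was called lower. Of the whole list 35 of 37 genes were called lower, so this does not set the genes with the letters apart. The list was made of known ATF4 targets, and 2.82% of all tested genes with a window held the letters. In the other lists the letters stood in genes called lower, such as Nupr1 and Vldlr, and in genes not called, such as Atf3 (0.62, edgeR adjusted p = 0.0906).

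Other targets of ATF4 and CHOP were called in both directions. Of 28 tested, 12 were called lower and 10 higher, with a median of −0.10. Vldlr, a lipoprotein receptor gene that holds a CARE match as well, had the largest decrease (log2 fold change −5.29, edgeR adjusted p = 4.7e-05), followed by Stc2, of a secreted stress-linked glycoprotein (−4.21, adjusted p = 0.000142). The largest increases were those of Bcl2l11, which encodes the death-promoting protein BIM (2.17, adjusted p = 0.00158), and Map1lc3b, an autophagy gene (1.91, adjusted p = 0.000132). Among mitochondrial stress genes linked to ATF5, 7 of 12 were called lower and 1 higher (median −0.55). There Lonp1, a protease gene of the mitochondrial matrix, fell from 312 ± 4.18 to 86.7 ± 7.87 CPM (SD, n = 3; −1.85, edgeR adjusted p = 4.8e-05), Afg3l2 fell (−1.17, adjusted p = 0.000698) and Spg7 rose (0.55, adjusted p = 0.00353).

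The genes of eIF2, of its exchange factor eIF2B and of the kinases' regulators had the smallest share of calls of the 6 lists, with 3 of 22 called lower and 2 higher (median 0.011). Eif2b3 (log2 fold change −0.92, edgeR adjusted p = 0.00602) and Eif2s2 (−0.70, adjusted p = 0.00248) fell. Eif2b2 rose (0.50, adjusted p = 0.0139), a call lost without control replicate 1 (0.121), control replicate 3 (0.0640), KO replicate 2 (0.0560) or KO replicate 3 (0.0504), and without both libraries numbered 3 (0.0503). Eif2s1, which encodes the phosphorylated subunit eIF2α itself, held 262, 308 and 214 CPM in control and 244, 224 and 212 CPM in KO and was not called (−0.21, adjusted p = 0.284). Without control replicate 3 it was −0.39 (adjusted p = 0.0493), and without control replicate 2 it was −0.083 (adjusted p = 0.650).

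In the list of bZIP partner genes, 3 of 21 were called lower and 5 higher (median −0.0065). The list also holds Nupr1, which is not itself a bZIP gene. Cebpg, whose product pairs with ATF4 at amino acid genes, fell from 97.3, 93.6 and 102 CPM to 67.3, 69.0 and 59.5 CPM (log2 fold change −0.58, SE 0.108, edgeR adjusted p = 0.00302). Atf3, a repressor gene induced by ATF4, was at 49.2, 29.6 and 42.6 CPM in control and 53.4, 44.3 and 89.1 CPM in KO and was not called (0.62, adjusted p = 0.0906), although the replicate block gave a call (adjusted p = 0.0142), as did the fit without a filter on low counts (0.0419). KO replicate 3 was the highest library, and Atf3 was at 0.27 (adjusted p = 0.360) without it and at 0.32 (adjusted p = 0.248) without both libraries numbered 3. Nupr1 (−1.96, adjusted p = 0.00120) and Batf3 (−1.56, adjusted p = 0.00891) had the largest decreases. Cebpd (2.46, adjusted p = 0.00124) and Fos (2.28, adjusted p = 0.000179) had the largest increases. Of 20 endoplasmic reticulum chaperone and sensor genes, 7 were called lower and 4 higher (median −0.074). Pdia6 (−1.18, adjusted p = 0.000325) and Pdia4 (−0.89, adjusted p = 0.000730) fell most, and Dnajb9 (1.07, adjusted p = 0.00137) and Syvn1 (0.96, adjusted p = 0.000553) rose most.

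**Figure D4:**
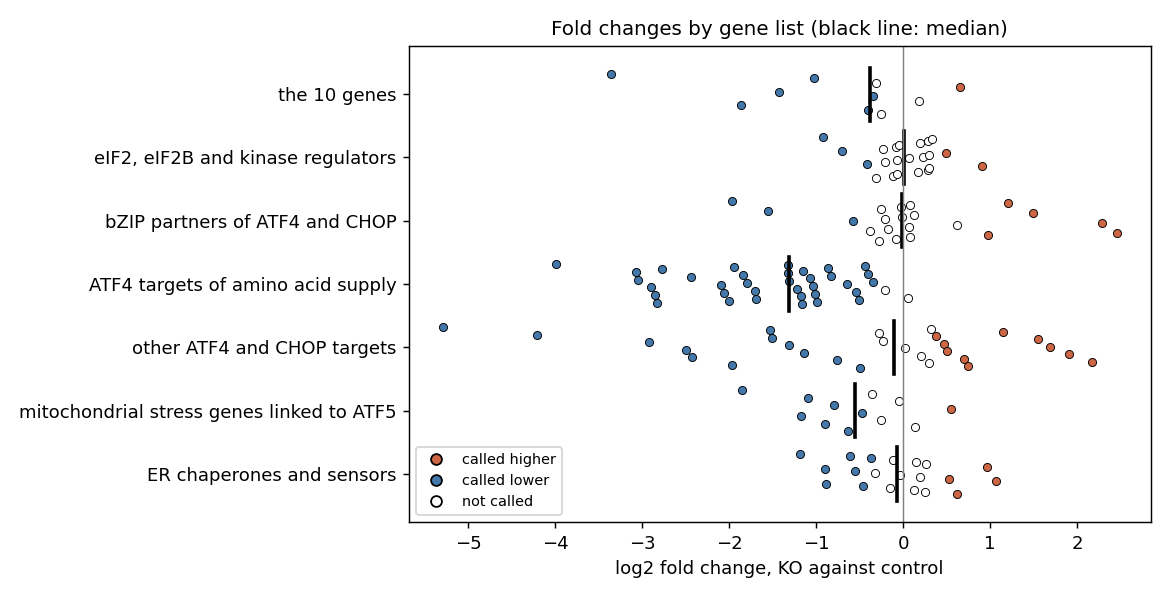
Log2 fold change of KO against control (horizontal axis) for each tested gene of the 10 genes and of the 6 lists, with called genes filled (orange higher, blue lower), the others open, and a black line at the median. The median lies at −0.38 for the 10 genes, at −1.31 for the ATF4 targets of amino acid supply, and near 0 for eIF2 and eIF2B genes, bZIP partners and chaperones.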

How the data were processed

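RNA of 3 control and 3 KO Th17 cultures was compared. The authors deposited 1 table of whole-number counts per gene symbol, not normalized as far as the values show. The submitters' processing notes name STAR, featureCounts, DESeq2 and the build mm10; their roles, settings, annotation and strand setting are not given in the sources used here. Groups and replicate numbers came from the titles.

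Counts were tested with edgeR 4.0.16 in R 4.3.3 (quasi-likelihood, TMM factors, filterByExpr, no covariate) over all 14268 genes kept, with Benjamini-Hochberg adjustment over all of them and calls at an adjusted p under 0.05. SE is the log2 fold change divided by the root of F. The common biological coefficient of variation was 0.212. The fit was tested on data simulated at the common dispersion. It recovered 62 of 100 genes given an absolute log2 fold change of 1 and 100 of 100 given 2. Of 13883 unchanged genes, 5 were called. Only 100 genes at each size were changed among 14083, whereas 46.1% of genes were called in the data. The adjustment therefore acts differently there, and these rates do not carry over to the data. Smaller changes were not simulated. The smallest exact permutation p that 3 against 3 allows is 0.1, so no single measure could pass by that test. Reads have no stated molecular identifiers, so counting error covers part of the error only.

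The 10 genes, the lists and the motifs were chosen with earlier results of these data known. Named were the 10 genes, Rtf1, Eif2ak2, Ppp1r15b, Eif2s1, Atf3 and Cebpg, per list the 2 largest called changes each way at a mean of at least 5 CPM, and the 3 genes nearest in profile to Atf4 and Chac1; Tmem189, Aimp2, Ankrd61, Mars, Csf1r, Cd3e, Slc38a1 and Wars were named after their values were seen. Positions, lengths and overlaps came from GENCODE M21 (GRCm38, the assembly of mm10), promoter sequences from RefSeq (GRCm38.p6), with 10 of 10 genes matched. Further marker lists summed to 11.3 to 19.2 CPM in control and 4.22 to 15.9 in KO (B cell), 10.8 to 15.1 and 15.1 to 16.2 (CD8 and NK), 1.18 to 2.92 and 0.988 to 2.03 (erythroid), and 0.486 to 0.665 and 0.107 to 0.797 (fibroblast).

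The value of 1 further marker is not reported here. Replicate numbers were read as pairing the libraries, since deviations from the group means correlated at 0.27, 0.13 and 0.379 across genes for equal numbers (control replicate 2 also at 0.204 with KO replicate 1); what the numbers mean is not given in the sources used here. Alternatives were other scalings and filters, the DESeq2 1.42.0 Wald test, the replicate block and fits without libraries.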

Additional observations from a re-analysis of the deposited data

How the results depend on the processing

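The 10 genes gave 150 fold changes over 15 alternatives. None reversed (of the other genes named, Slc38a1 did, ranging from −0.062, without control replicate 3, to 0.069 when 1 library was left out), and 138 kept their side of the threshold; the 12 lost calls were those of Eif2ak4 (7) and Ppp1r15a (5). Of the 10 genes 7 were called with the replicate block (as without it), with DESeq2 size factors, upper-quartile factors, TMM without the 50 most counted genes, a mean count of at least 10 and the DESeq2 Wald test, 6 without a filter and 5 with library totals only. Beside these, the share of all genes called was 53.5% with the block, 45.7% to 47.3% with the 5 others, 32% without a filter and 46.3% with library totals, so that the share of the 10 was close to that of all genes in the last. Leaving out 1 library gave 5 to 7 calls among the 10, 72 to 89 among the 138 related genes (88 with all libraries), and 4460 to 7050 among all tested genes (6574), the lowest without KO replicate 2. The block gave 7628 calls over all genes and changed the call of no gene among the 10; of the other genes named it changed those of Ppp1r15b and Atf3. Chac1 in KO is limited by depth, with 14 to 65 counts per library.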
